A study of Caenorhabditis elegans with 2 samples.

Results

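The peaks described here lie between head-to-head genes, which are neighbours transcribed away from each other from starts on opposite strands. They were chosen by position alone. The summit of an autosomal peak had to have a protein-coding transcript start on the minus strand within 1000 bp on its left and a protein-coding transcript start on the plus strand within 1000 bp on its right. Of the 3457 peaks that the authors kept after an IDR threshold (irreproducible discovery rate, a measure of how well regions keep their rank between replicates), 437 met this rule. They were 15.9% of the 2755 autosomal peaks (95% Wilson interval 14.5 to 17.3) and are called members below.

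The data come from ChIP-seq, which recovers DNA bound by a protein and maps it along the genome, of an eGFP fusion of the nuclear receptor NHR-77 in whole L4 larvae of Caenorhabditis elegans. The strain was OP353, with genotype unc-119(tm4063) III; wgIs353. Larvae of both sexes were pooled, the age in hours is not known, and no defining markers could be checked, since only DNA was read. Both samples are biological replicates of this 1 group and were called against the same control. No untagged sample was analysed here, so recovery through NHR-77 cannot be told apart from recovery at sites that many proteins share.

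Nuclear receptors bind DNA through a zinc-finger domain and often respond to small lipophilic ligands, and nematodes carry a greatly expanded family of them. In a head-to-head pair, the DNA between the starts holds the promoters of both genes, so a peak there is near both and a summit alone does not assign it to either. In the worm many transcripts are trans-spliced to a short leader, so the annotated start of a gene is often not where its transcription begins. Head-to-head pairs occur throughout the worm genome, beside genes in same-direction order and genes in operons.

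Windows of 121 bp around the summits show what the strongest members look like. The letters are from the plus strand of the WBcel235 (ce11) assembly as given by RefSeq, and the names give the gene to the left and then the gene to the right. The first set holds the 10 strongest members outside one chromosome that is not printed. Capitals mark 10 words of 7 letters, on either strand, that were more frequent at members than at other promoter peaks and are described with the sequence results below.
rpl-20/Y17G9B.5 (chrIV:4750005-4750125): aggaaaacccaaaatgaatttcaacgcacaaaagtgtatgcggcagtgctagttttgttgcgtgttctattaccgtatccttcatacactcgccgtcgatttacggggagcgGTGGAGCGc
rpl-15/K11H12.8 (chrIV:654856-654976): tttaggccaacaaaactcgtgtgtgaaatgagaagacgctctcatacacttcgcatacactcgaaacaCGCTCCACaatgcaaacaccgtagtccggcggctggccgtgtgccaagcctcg
K01G5.10/tasp-1 (chrIII:10759185-10759305): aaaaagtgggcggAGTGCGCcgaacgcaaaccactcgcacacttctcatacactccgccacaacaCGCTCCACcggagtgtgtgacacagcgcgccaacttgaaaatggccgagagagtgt
iff-2/F54C9.14 (chrII:8561368-8561488): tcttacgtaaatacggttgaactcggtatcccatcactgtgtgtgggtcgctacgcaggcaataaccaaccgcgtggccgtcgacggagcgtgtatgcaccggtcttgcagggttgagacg
Y48B6A.1/rpl-43 (chrII:14154491-14154611): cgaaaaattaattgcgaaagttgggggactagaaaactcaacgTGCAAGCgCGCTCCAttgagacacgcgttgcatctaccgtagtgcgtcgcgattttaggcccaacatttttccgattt
ska-3/rps-12 (chrIII:5679083-5679203): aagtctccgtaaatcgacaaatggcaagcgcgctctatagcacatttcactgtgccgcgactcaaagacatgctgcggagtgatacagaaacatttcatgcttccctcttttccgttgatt
ifet-1/rps-1 (chrIII:4475610-4475730): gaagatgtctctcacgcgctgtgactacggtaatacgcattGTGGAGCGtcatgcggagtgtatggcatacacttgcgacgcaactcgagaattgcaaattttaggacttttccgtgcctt
Y71H2AM.20/cox-6B (chrIII:2785992-2786112): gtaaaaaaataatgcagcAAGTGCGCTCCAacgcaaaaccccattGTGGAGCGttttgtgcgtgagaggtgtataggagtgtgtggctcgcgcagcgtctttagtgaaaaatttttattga
rpl-12/lin-54 (chrIV:13240645-13240765): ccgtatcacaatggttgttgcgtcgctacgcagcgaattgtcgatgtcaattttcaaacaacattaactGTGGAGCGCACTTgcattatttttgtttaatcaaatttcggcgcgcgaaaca
hsp-110/rpn-3 (chrIII:8447112-8447232): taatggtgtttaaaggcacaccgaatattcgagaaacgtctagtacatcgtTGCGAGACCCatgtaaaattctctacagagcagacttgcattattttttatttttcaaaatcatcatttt
Capitals fell in 8 of these 10 windows. The word CGCTCCA, or its reverse complement TGGAGCG, stood in 7 of them. Those of iff-2/F54C9.14 and ska-3/rps-12 held none of the 10 words. The windows of 121 bp are longer than the 101 bp searched for the shares below. The marked stretch of rpl-20/Y17G9B.5 lies outside those 101 bp. Members on chromosome III were among those used to pick the words, so these counts are a description only.

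A further set covers 7 fixed motifs that were less frequent at members than at other promoter peaks. For each motif it holds the strongest member that carried it outside the same chromosome that is not printed. Capitals mark only that motif, on either strand. In order these are 3 forms of the site of GATA factors (AGATAA and TGATAA and the longer CTGATAA), an E-box (CACGTG), a GA repeat (GAGAGAGA), the nuclear receptor half-site AGGTCA and its variant AAGTCA.
F08F3.8/acl-6 (chrV:5433188-5433308): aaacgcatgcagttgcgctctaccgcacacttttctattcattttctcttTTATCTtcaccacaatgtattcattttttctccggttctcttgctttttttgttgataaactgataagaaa
C42D4.13/srlf-7 (chrIV:7189013-7189133): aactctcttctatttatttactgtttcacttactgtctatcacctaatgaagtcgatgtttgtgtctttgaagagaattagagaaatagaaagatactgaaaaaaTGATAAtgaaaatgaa
nlt-1/ZK892.3 (chrII:10001313-10001433): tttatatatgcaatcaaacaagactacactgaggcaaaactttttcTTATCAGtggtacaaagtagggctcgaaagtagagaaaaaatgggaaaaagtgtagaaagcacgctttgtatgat
T26A8.4/pdtf-1 (chrIV:8432902-8433022): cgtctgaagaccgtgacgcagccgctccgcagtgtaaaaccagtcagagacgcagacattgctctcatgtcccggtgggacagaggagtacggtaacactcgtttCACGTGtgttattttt
C17H12.2/vha-8 (chrIV:6790568-6790688): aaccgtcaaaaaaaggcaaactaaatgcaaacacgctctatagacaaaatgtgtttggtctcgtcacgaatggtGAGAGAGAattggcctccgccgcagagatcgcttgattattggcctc
F01G4.6/pfd-1 (chrIV:11149735-11149855): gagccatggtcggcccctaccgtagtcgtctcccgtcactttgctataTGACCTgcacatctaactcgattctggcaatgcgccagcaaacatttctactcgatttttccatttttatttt
C06B3.6/C06B3.7 (chrV:13909503-13909623): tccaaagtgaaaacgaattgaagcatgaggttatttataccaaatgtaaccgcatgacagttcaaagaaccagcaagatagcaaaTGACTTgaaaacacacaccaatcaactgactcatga
Their pooled signals were 140 to 167, below those of the first set and above the members' upper quartile of 107.

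Members became more frequent with the strength of the peak. Signal means the enrichment that the authors gave each region. Its scale is not stated and differs between lists, so regions were ranked within a list. Among the 100 strongest pooled regions, 20 of the 73 on autosomes were members, 27.4% (Wilson interval 18.5 to 38.6). The share was 23.1% for ranks 251 to 500 (17.8 to 29.4) and 11.7% for ranks 2001 to 3457 (9.98 to 13.7). Among regions below the threshold, positioned in the same way, it fell to 6.26% at ranks 5001 to 10000 and to 1.45% at ranks 20001 to 30000 (1.21 to 1.73). For scale, 1.97% of all autosomal bases met the rule. Both replicate lists, taken alone, had the same course, at 25% and 28.4% among the 100 strongest of replicate 1 and replicate 2, and at 2.04% and 1.95% among the last 10000. Peaks with a start on 1 side only, here called single-direction peaks, numbered 1206, and among pooled regions their share stayed between 40.5% and 53.4% in every rank class down to 5000. The remaining 1112 autosomal peaks had neither start.

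**Figure D1:**
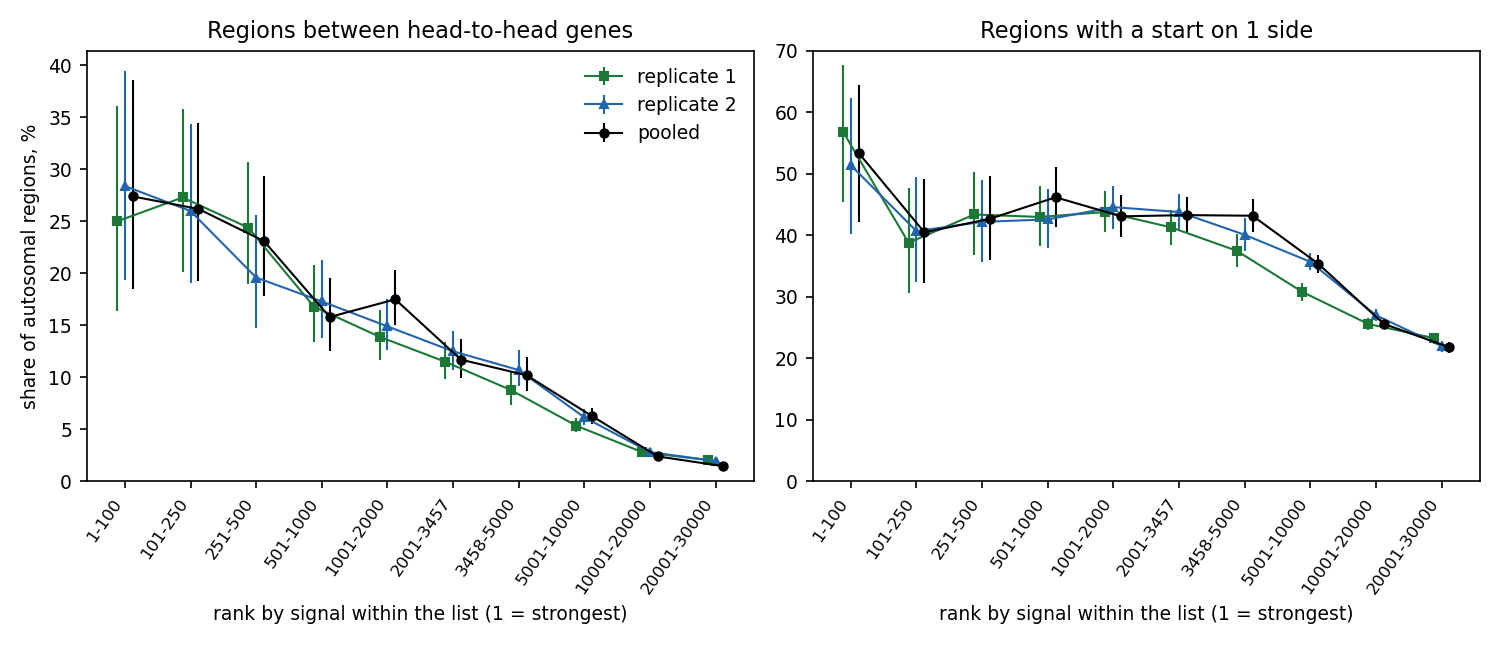
Share of autosomal regions that lie between head-to-head genes (left) and that have a start on 1 side (right), in classes of rank by signal, in the lists of replicate 1, replicate 2 and both pooled. Bars are 95% Wilson intervals. The left share is above 23% in the classes of the 250 strongest and below 3% after rank 10000, while the right share is 43% or close to it in most classes down to rank 5000.

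In signal, members exceeded single-direction peaks by a modest margin, which was not settled within the stronger 50% of peaks. The median pooled signal was 74.2 for members (quartiles 57.8 and 107, range 46.8 to 496), against 67.2 for single-direction peaks (55.4 and 91.1) and 64.2 for peaks with neither start. Of the members, 59.7% were in the stronger 50% of autosomal peaks, against 50.2% of single-direction peaks. The difference was 9.56 percentage points (95% Newcombe interval 4.11 to 14.9). It was 7.83 points in the list of replicate 1 (2.34 to 13.2) and 7.87 points in that of replicate 2 (2.39 to 13.2). The members' median was the higher on 5 of 5 autosomes, by the widest margin on chromosome III (78.7 against 67.3) and the narrowest on chromosome IV (67.6 against 65.7). Peaks are not independent samples, so these intervals cover counting error only. Repeated within the stronger 50% of peaks alone, with their own median, it was 4.69 points and spanned 0 (-2.55 to 11.8). Without peaks of ribosomal protein genes the difference was 8.02 points (2.35 to 13.6).

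The strongest member lay between rpl-20, a gene of the large ribosomal subunit, and Y17G9B.5 (chrIV:4749935-4750232, pooled signal 496). Its signal was 168 in replicate 1 and 320 in replicate 2, where it ranked 8 and 10. The member between rpl-15, another gene of the large subunit, and K11H12.8 (chrIV:654766-655070) had signals of 129 and 330 and ranked 23 and 8. Between K01G5.10 and tasp-1, a gene for a taspase-type protease (chrIII:10759104-10759423), the signals were 115 and 324 and the ranks 29 and 9. These 3 members were near the top of both lists, and each ranked 14 or better in the pooled list.

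Next came iff-2, an elongation factor of the eIF5A type, with F54C9.14 (chrII:8561306-8561572), at ranks 16 in replicate 1 and 23 in replicate 2. The member between Y48B6A.1 and rpl-43 ranked 35 and 25, and that between the kinetochore gene ska-3 and rps-12 ranked 37 and 32. The pair rps-20/ekl-4 ranked 21 and 39. The pair ifet-1/rps-1, in which ifet-1 encodes a repressor that binds the cap-binding factor, ranked 46 and 54. Between Y71H2AM.20 and cox-6B, a subunit of cytochrome c oxidase, the ranks were 53 and 56, and this summit also lay within the annotated body of cox-6B. The pair rps-19/hsr-9 ranked 54 and 62. All of these 10 strongest members thus kept ranks under 100 in both replicates.

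Members 11 to 20 had pooled signals between 189 and 234. They were rpl-12/lin-54, where lin-54 encodes the DNA-binding subunit of the DREAM complex, hsp-110/rpn-3 (a chaperone and a proteasome lid subunit), mig-5/cct-1 (a Dishevelled protein and a chaperonin subunit), larp-1/wip-1 and rps-15/F36A2.9. The others were eef-1A.1/rfc-4 (an elongation factor and a clamp loader subunit), ctf-4/eef-1G, drr-2/set-16 (an initiation factor and a histone methyltransferase), W03C9.5/mex-1 and rab-18/kbp-4. Replicate 1 ranked them between 52 and 169, and replicate 2 between 52 and 114. At the edge of the rule, the member with the farthest start was srh-282/sma-10, 998 bp from srh-282 and 23 bp from sma-10 (signal 138), and the nearest peak outside was fat-6/ZK822.9, 1006 bp from ZK822.9 (signal 101).

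Most members were found in both replicates. Of the 437, 430 overlapped a region in both replicate lists, 98.4%, against 98.3% of single-direction peaks. Among the 3457 strongest regions of each replicate, 68.4% of members were found in both (Wilson interval 63.9 to 72.6), against 62.4% of single-direction peaks (59.6 to 65), a difference of 6.07 points (0.821 to 11.1). That difference was 3.63 points with a reciprocal overlap of at least 50% (-1.82 to 8.96) and -0.635 points among the stronger 50% of peaks (-5.06 to 3.06), so it was not settled. Where both replicates had a region, their summits lay a median of 25 bp apart for members (quartiles 11 and 52) and 34 bp apart for single-direction peaks (14 and 63). Ranks of members in the replicates correlated with Spearman's rho 0.57 (n = 430 members, which share libraries and control, given as a description).

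A minority of members differed widely between the replicates. Replicate 1 had no region at 5 members and replicate 2 had none at 2. For 25 members the rank in replicate 1 was over 5 times that in replicate 2, and for 10 the reverse held. The largest ratio of ranks, picked like the next 2 members after its values were seen, was at sec-61.A/rps-18, a translocon subunit and a small ribosomal subunit protein, with signals of 7.08 (rank 19239) in replicate 1 and 61.8 (rank 850) in replicate 2. The member between C04G6.11 and mpk-2 ranked 23628 and 1125. In the other direction, F13A7.11/F13A7.12 ranked 404 in replicate 1 and 4867 in replicate 2.

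**Figure D2:**
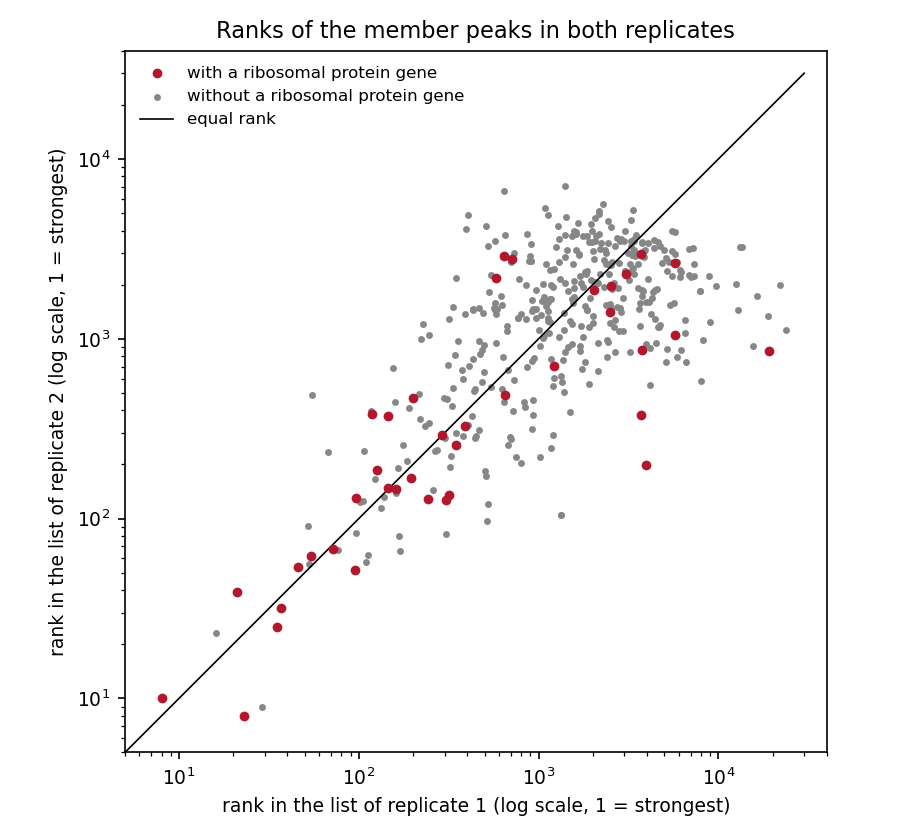
Rank of each member by signal in replicate 1 (horizontal) and replicate 2 (vertical), both on log scales with 1 as the strongest, for the members with a region in both lists. Red points have a ribosomal protein gene on at least 1 side and the line marks equal rank. The strongest members lie close to the line, and the spread widens after about rank 1000.

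The starts of a member pair were a median of 567 bp apart (quartiles 362 and 813, range 50 to 1811). The summit was a median of 161 bp from the nearer start (84 and 236) and 382 bp from the farther one (248 and 602). Neither strand was favoured, since the minus-strand start was the nearer in 49% (44.3 to 53.6). The summit stood in the central 33.3% of the interval in 41.6% of members (37.1 to 46.3), and in 43.1% and 41.6% with the summits of replicate 1 and replicate 2. By spacing of the starts, the central share was 30% up to 250 bp (18.1 to 45.4) and 54.5% at 251 to 500 bp (46.4 to 62.4). It was 35.6% at 501 to 1000 bp (29.2 to 42.5) and 37.9% above that (26.6 to 50.8). It was thus highest in the second class and did not run in 1 direction. The median distance to the nearer start grew with spacing, from 47 bp below 251 bp to 120, 200 and 341 bp in the longer classes. For starts over 1000 bp apart the rule itself keeps summits away from both ends of the interval. Both values of that class, and with them the central share over all members, are therefore partly set by the rule. For 392 members the summit lay in no protein-coding gene body, and for 45 it lay in one. In 31 cases a further protein-coding start lay between those of the pair.

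**Figure D3:**
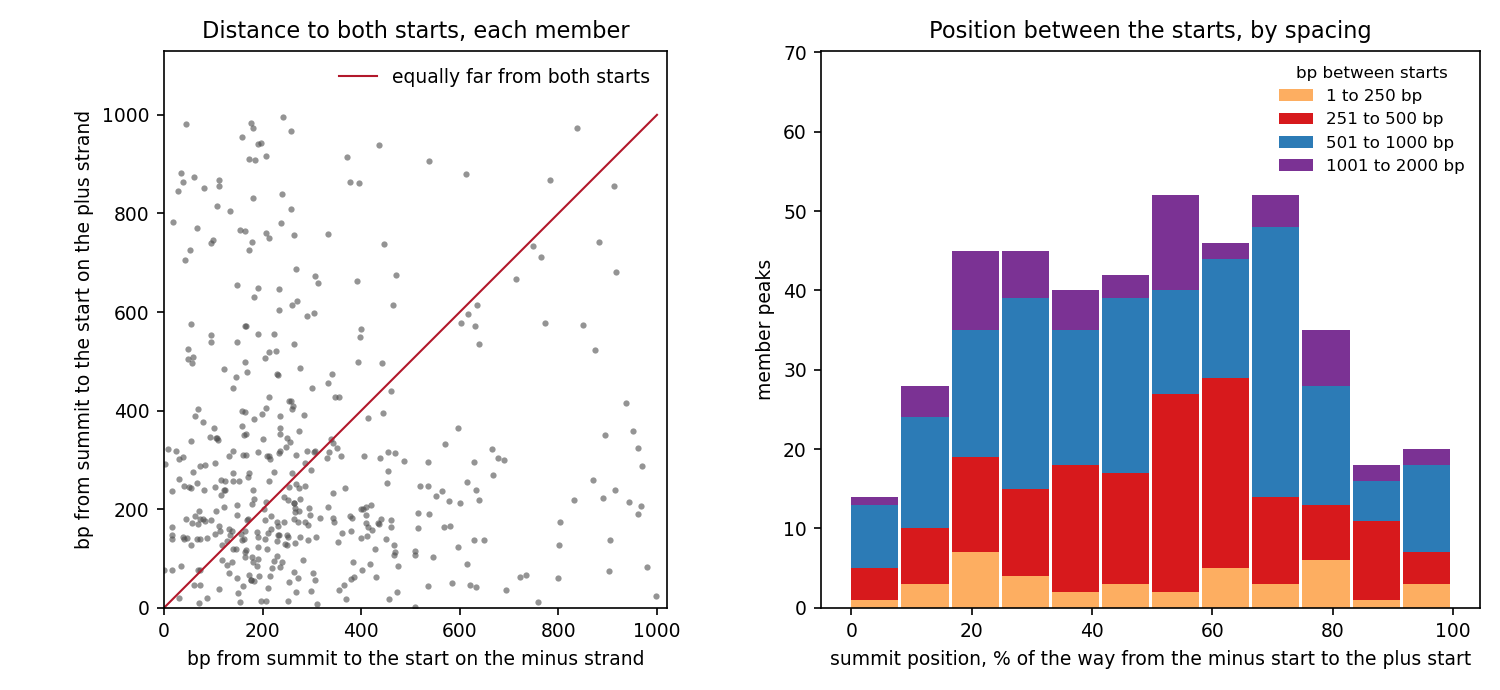
Left, distance in bp from each member's summit to the minus-strand start (horizontal) and to the plus-strand start (vertical), with the line of equal distance. Right, number of members by summit position between the starts, in % of the way, coloured by the spacing of the starts. Most summits lie within 300 bp of at least 1 start, and members with 251 to 500 bp between starts are densest past the middle of the interval.

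The 437 members fell on 424 distinct gene pairs with 847 genes, and 13 pairs held 2 members each, 9 of them between the same annotated starts. The strongest of these 13 pairs, picked after their values were seen, were F57C2.5/spat-1, with signals of 148 and 74.1, and usp-14/vnut-1, where usp-14 encodes a deubiquitinase of the proteasome, with signals of 136 and 74.7. In both, 1 summit lay nearer the start on the left and the other nearer the start on the right. Chromosome III had the largest member share of the autosomes, 106 of its 505 peaks (21%, Wilson interval 17.7 to 24.8). Chromosome II had the smallest, 78 of 585 (13.3%, 10.8 to 16.3). The share of bases that met the rule was not computed for each autosome, so these shares are not set against it. On the X chromosome only 15 of 702 peaks met the same rule (2.14%, 1.3 to 3.5), where 0.56% of bases met it. Those 15 had a median signal of 83.3.

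Seen from the genome, 2525 autosomal intervals of 1 to 2000 bp separated head-to-head starts with no other start between, and 482 of them held a summit, 19.1%. Of 6486 intervals of the same lengths between same-direction genes, 7.59% held one. The difference was 11.5 points (Newcombe interval 9.87 to 13.2). It held in each class of length, from 6.35 points at 1 to 250 bp (3.76 to 9.67) to 16.7 points at 251 to 500 bp (12.8 to 20.8), and was 6.78 points at 1001 to 2000 bp (3.75 to 10). Head-to-head intervals of 251 to 500 bp were occupied most often, at 25.9%, against 9.16% of same-direction intervals of that length. A head-to-head interval has a gene start at both ends and a same-direction interval at 1, and per start the comparison was not made. Same-direction intervals inside operons were not left out, so some of them need not hold a promoter. Occupied shares in the middle and the outer parts of the chromosomes were 20% and 18.4%, a difference of 1.6 points (-1.51 to 4.78).

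The share of genes with a member differed widely between gene lists. Of the 4992 protein-coding genes beside a head-to-head interval, 843 had a member, 16.9%, and of the genes in no list 15.6% did. Among ribosomal protein genes, 43 of 49 had one (87.8%, Wilson interval 75.8 to 94.3), more than in any of the other 34 lists. Translation factors had 13 of 23, led by iff-2, ifet-1 and eef-1A.1. Aminoacyl-tRNA synthetases, which charge transfer RNA, had 7 of 15, led by hars-1 (signal 89.1). Chaperones had 18 of 35, led by hsp-110, cct-1 and the prefoldin gene pfd-1 (150). Proteasome genes had 8 of 22, led by rpn-3 and pbs-2 (97.1).

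Splicing genes had a member in 17 of 34 cases, led by rsp-1 and rsp-2, which encode SR proteins and face each other across 1019 bp (signal 137). The respiratory chain had 12 of 24, led by cox-6B and by nuo-1 of complex I (113), whose member also lay beside the ribosomal protein gene rpl-36.A. The V-ATPase, the proton pump of acidic organelles, had 4 of 7, led by vha-1 (185) and vha-8 (140). Chromatin regulators had 11 of 26, led by set-16, the histone chaperone lin-53 (181) and ash-2 (172). Mitochondrial import and carriers had 4 of 8, led by the nucleotide carrier ant-1.1 (107), mitochondrial ribosomal proteins 9 of 28, led by mrpl-49 (163), and vesicle transport 18 of 60, led by rab-18 (189) and vps-32.1 (175). For these lists the Wilson intervals lay above 16.9%. No set test was made, and lists were not independent of earlier results.

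Other lists had intervals that spanned 16.9%. They were nuclear transport (8 of 27, led by imb-1), ribosome biogenesis (4 of 13, led by fib-1), glycolysis and citric acid cycle (4 of 13, led by aco-2), lipid metabolism (7 of 24, led by acl-6), glucuronosyltransferases (5 of 18), cytochromes P450 (4 of 15, led by cyp-33C6 and cyp-33C7, which share 1 member), and lysosomal proteins (3 of 15). Polymerases and general factors had 5 of 22, DNA replication and repair 7 of 33, the ubiquitin system 7 of 33, RNA decay and small RNA pathways 6 of 34, homeobox genes 2 of 9 and F-box and MATH-BTB genes 16 of 112. The list of other transcription factors had 8 of 26. Its name pattern also takes sma-10, which is no transcription factor. All lists rest on patterns of gene names, so others can also hold genes of another function. The ribosome biogenesis list, for example, takes imp-2 by name, and the function of imp-2 was not checked. Lists without any member were glutathione transferases (0 of 13, Wilson interval up to 22.8%), neuropeptides (0 of 14, up to 21.5%) and vitellogenins (0 of 1).

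Several large families rarely held a member. Histones, many of them in head-to-head pairs, had 3 of 64 (4.69%, Wilson interval 1.61 to 12.9), namely the variant gene htz-1 (signal 133) and the facing pair his-61 and his-62 (53.5). Chemoreceptors had 9 of 285 (3.16%, 1.67 to 5.89), among them srh-282 and srh-70, whose members also lay beside sma-10 and the homeobox gene ceh-99. C-type lectins had 1 of 81, clec-218 (1.23%, 0.218 to 6.67). Sperm genes had 3 of 52 (5.77%, 1.98 to 15.6). Nuclear hormone receptors, the family of NHR-77 itself, had 3 of 44 (nhr-68, nhr-142 and nhr-80). Cuticle collagens had 3 of 43, led by col-38, whose member also lay beside the ribosomal protein gene rpl-5. For these last 2 lists the intervals reached 18.2% and 18.6%.

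**Figure D4:**
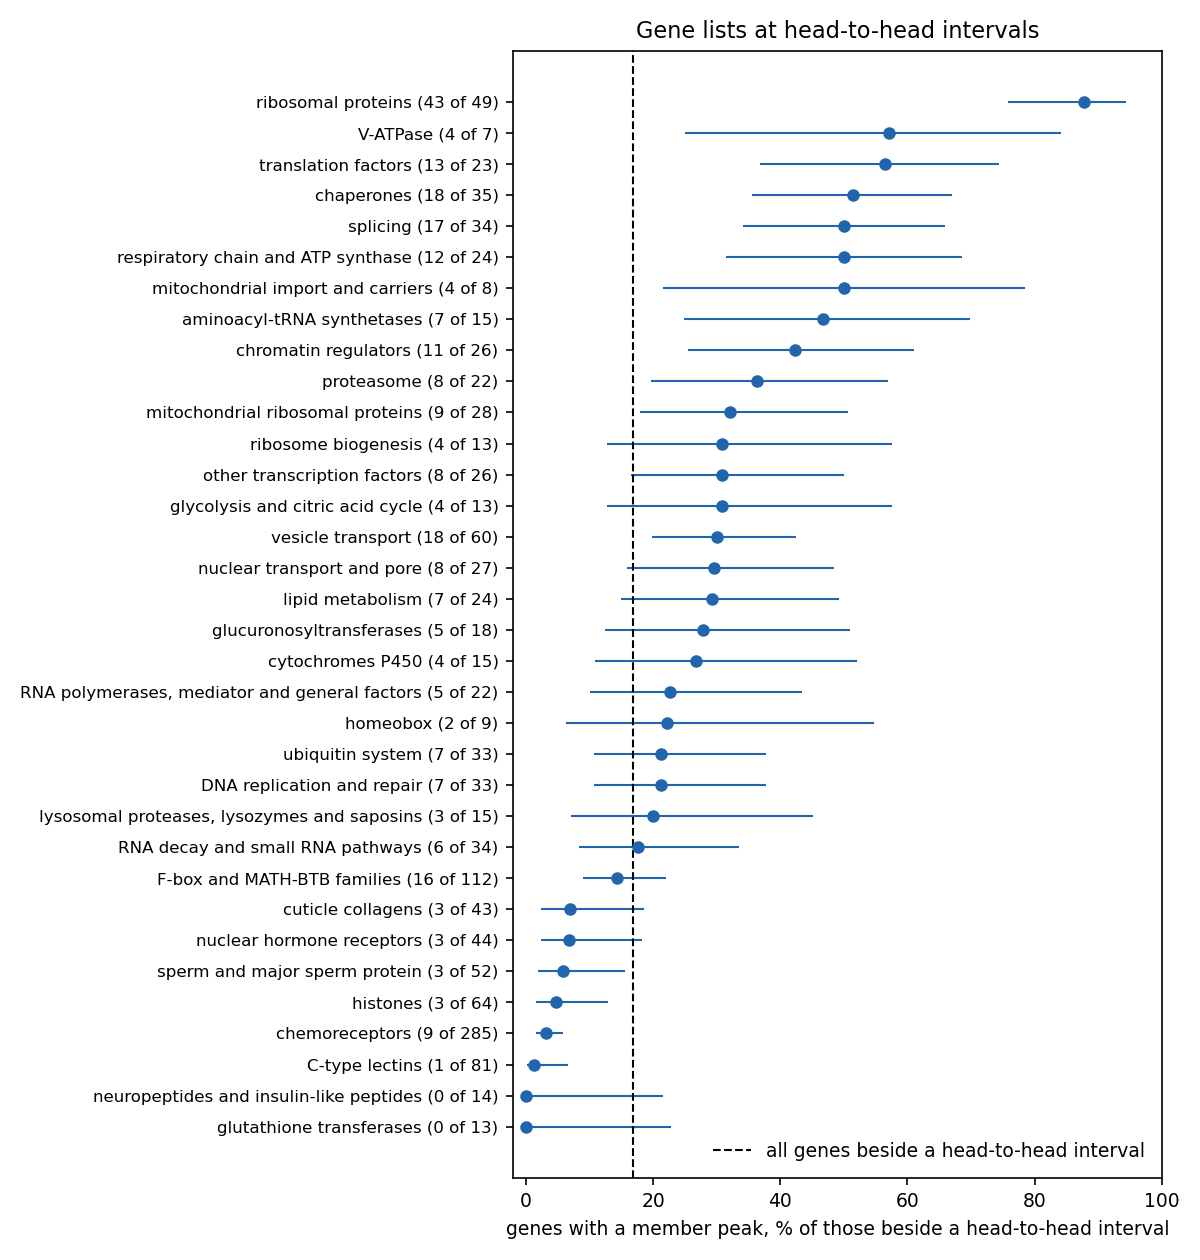
Share of genes with a member peak among the genes of each list beside a head-to-head interval, with 95% Wilson intervals, for lists with at least 7 such genes. The dashed line is the 16.9% of all genes beside such an interval. Ribosomal proteins stand apart at 87.8%, and chemoreceptors, C-type lectins and histones lie lowest among lists with a member.

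Ribosomal protein genes were frequent among the strongest members. They were on at least 1 side of 40 members, of which 3 had one on both sides (rps-10/rpl-24.1, rpl-39/rps-30 and rps-14/rpl-36). They made up 9 of the 20 and 25 of the 100 strongest members. The median pooled signal was 138 with such a gene (quartiles 73.2 and 176) and 72.2 without (56.5 and 97.3). In replicate 1 their median rank was 307 and in replicate 2 it was 310, against medians over all members of 1408 and 1446. Peaks at these genes were also common in other gene orders. Of the 30 autosomal ribosomal protein genes beside no head-to-head interval, 22 had a summit within 1000 bp upstream of a start (73.3%, Wilson interval 55.6 to 85.8), against 8.29% of all 12250 such genes.

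In the 37 members with exactly 1 ribosomal protein gene, the summit was more often nearer the partner. It was nearer the ribosomal protein start in 13 of 37, a small count for which no interval was computed. The median distance was 293 bp to the ribosomal protein start (quartiles 235 and 365) and 178 bp to the partner's start (159 and 339). At rpl-43, for example, the summit lay 743 bp from its start and 178 bp from that of Y48B6A.1, while at rpl-12 it lay 54 bp from its start and 339 bp from that of lin-54. By the nearest start alone, most of these peaks would be given to the partner gene.

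The 10 strongest members with a list gene on both sides were ifet-1/rps-1 (signal 248), hsp-110/rpn-3 (232), eef-1A.1/rfc-4 (211), rps-10/rpl-24.1 (173), polh-1/rps-22 (172), rpl-7A/set-21 (168), rpl-39/rps-30 (165), rpl-28/mrpl-49 (163), rps-14/rpl-36 (152) and fib-1/mut-15 (146). In polh-1/rps-22 a DNA polymerase of translesion synthesis faces a ribosomal protein gene across 266 bp. In fib-1/mut-15 the gene of the nucleolar protein fibrillarin faces a gene of the mutator complex of small RNA silencing across 320 bp. In all, 47 members had a list gene on both sides, 187 on 1 side and 203 on neither.

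Sequence at the summits set members apart from the other promoter peaks. Windows of 101 bp were searched on both strands for 20 fixed motifs, and 9 of them had a Newcombe interval of the difference from single-direction peaks that left out 0, with no adjustment for the number of motifs. The C plus G share of the windows was higher at members, with a median of 45.5%, against 41.1% at single-direction peaks. It was 32.7% at the centres of 1694 head-to-head intervals that had no pooled region at the centre. These are called empty intervals, though some of them held a pooled region away from the centre. The word CGCG stood in 45.8% of members (Wilson interval 41.2 to 50.5), against 27.6% of single-direction peaks (25.2 to 30.2), 12.5% of the empty intervals and 11.7% of windows centred 150 bp upstream of all 17242 autosomal protein-coding genes. The difference from single-direction peaks was 18.2 points (12.9 to 23.4), positive on 5 of 5 autosomes. It was 13.4 points (5.1 to 21.6) among windows of 40 to 50% C plus G, a check added after the data were seen. The word GTAC stood in 24.9% of members against 18.4% of single-direction peaks, and this difference spanned 0 in that check (4.56 points, -2.4 to 12) and with regions of replicate 1 alone (3.16 points).

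GATA sites were rarer at members than at single-direction peaks. TGATAA stood in 11.9% of members (9.19 to 15.3), against 28.9% of single-direction peaks (26.4 to 31.5) and 35.6% of autosomal peaks with neither start. The difference from single-direction peaks was -17 points (-20.7 to -12.8), and members were lower on 5 of 5 autosomes. Among windows of 40 to 50% C plus G it was -14 points (-18.5 to -8.78). The level at members was near that of empty intervals (9.03%) and of all promoters (11.8%). Both of those groups had a lower median C plus G share, 32.7% against 45.5% at members. No comparison with them at matched C plus G was made. CTGATAA, which contains TGATAA, stood in 4.58% of members and 12.8% of single-direction peaks, and AGATAA in 5.49% and 9.78%. Against empty intervals, where CTGATAA stood in 2.3%, members were higher for that word by 2.27 points (0.477 to 4.74). Members with TGATAA were less often in the stronger 50% of autosomal peaks, 46.2% against 61.6% of members without it (-15.4 points, -29.1 to -1.17), and 0 of the 40 members with a ribosomal protein gene had it (Wilson interval up to 8.76%). The strongest member with TGATAA was C42D4.13/srlf-7, shown above, with a signal of 160.

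Other sites were also rarer at members than at single-direction peaks. CACGTG stood in 2.06% of members and 4.98% of single-direction peaks (-2.92 points, -4.6 to -0.804), and GAGAGAGA in 1.83% and 5.14% (-3.31 points, -4.97 to -1.25). Members were above empty intervals for GAGAGAGA, which stood in 0.472% of those (1.36 points, 0.349 to 3.11). With regions of replicate 1 alone the difference from single-direction peaks for GAGAGAGA spanned 0 (-1.78 points). The half-site AGGTCA, the textbook core of nuclear receptor sites, stood in 1.37% of members and 3.57% of single-direction peaks (-2.19 points, -3.61 to -0.362), against 2.89% of empty intervals. AAGTCA stood in 2.29% and 5.31%. For both half-sites the difference spanned 0 among windows of 40 to 50% C plus G. The other 11 motifs, among them the CCAAT box and the TATA box, had intervals that spanned 0. CCGCCC stood in 5.49% of members and 4.98% of single-direction peaks, and the 24 members that had it were weak, with 25% in the stronger 50% of autosomal peaks.

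A search over all words of 7 letters, added after these results were seen, found sequences that recur at members. Words were ranked by the difference between members and single-direction peaks on chromosomes I, III and V, and the 10 highest were then read on chromosomes II and IV (155 members and 500 single-direction peaks). Both strands of a word were counted together. All 10 were again more frequent at members there, and 7 had an interval that left out 0. CGAGACC stood in 13.5% of members on II and IV and in 3.8% of single-direction peaks (9.75 points, 4.79 to 16.2). ACCGTAC stood in 7.1% and 1.2% (5.9 points, 2.51 to 11.1), and CGCTCCA in 9.68% and 4.4% (5.28 points, 0.966 to 11.1). The words GCGAGAC and GAGACCC overlap CGAGACC by 6 letters, and TCTCGCA overlaps the reverse complement of GCGAGAC by 6. They stood in 11% of members, in 9.68% and in 8.39%. The word GCTTGCA stood in 4.52% of members and in 1.6% of single-direction peaks. For AGTGCGC and AAGTGCG, which overlap by 6 letters, and for GCTCCAC, which overlaps CGCTCCA by 6, the difference spanned 0 on II and IV.

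At least 1 of the 10 words stood in 40% of members on II and IV (Wilson interval 32.6 to 47.9), against 17.2% of single-direction peaks there (14.1 to 20.8), a difference of 22.8 points (14.6 to 31.2). Among windows of 40 to 50% C plus G on II and IV the difference was 18.5 points (5.37 to 31.6). The share was 7.26% at peaks with neither start on II and IV, 6.61% at centres of empty head-to-head intervals and 6.66% at all promoters. Over all autosomes, the words occurred at 50 of the 100 strongest members and at 40 of the 100 weakest. These counts include chromosomes I, III and V, where the words were picked. The picking can raise these levels and those of the groups of members that follow. CGCTCCA stood at 19 of the strongest and 9 of the weakest, and GCGAGAC at 16 and 5. Members with a ribosomal protein gene had a word in 55% of cases (39.8 to 69.3) and members without one in 42.3% (37.6 to 47.2). GATA sites and these words seldom met, with a word in 4 of the 52 members that held TGATAA, against 190 of all 437 members (43.5%). This was not compared at matched C plus G. Among the 10 words lowest at members in the same search was TGATAAG, which holds a GATA site, with 4.52% of members and 19% of single-direction peaks on II and IV (-14.5 points, -18.8 to -8.95).

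**Figure D5:**
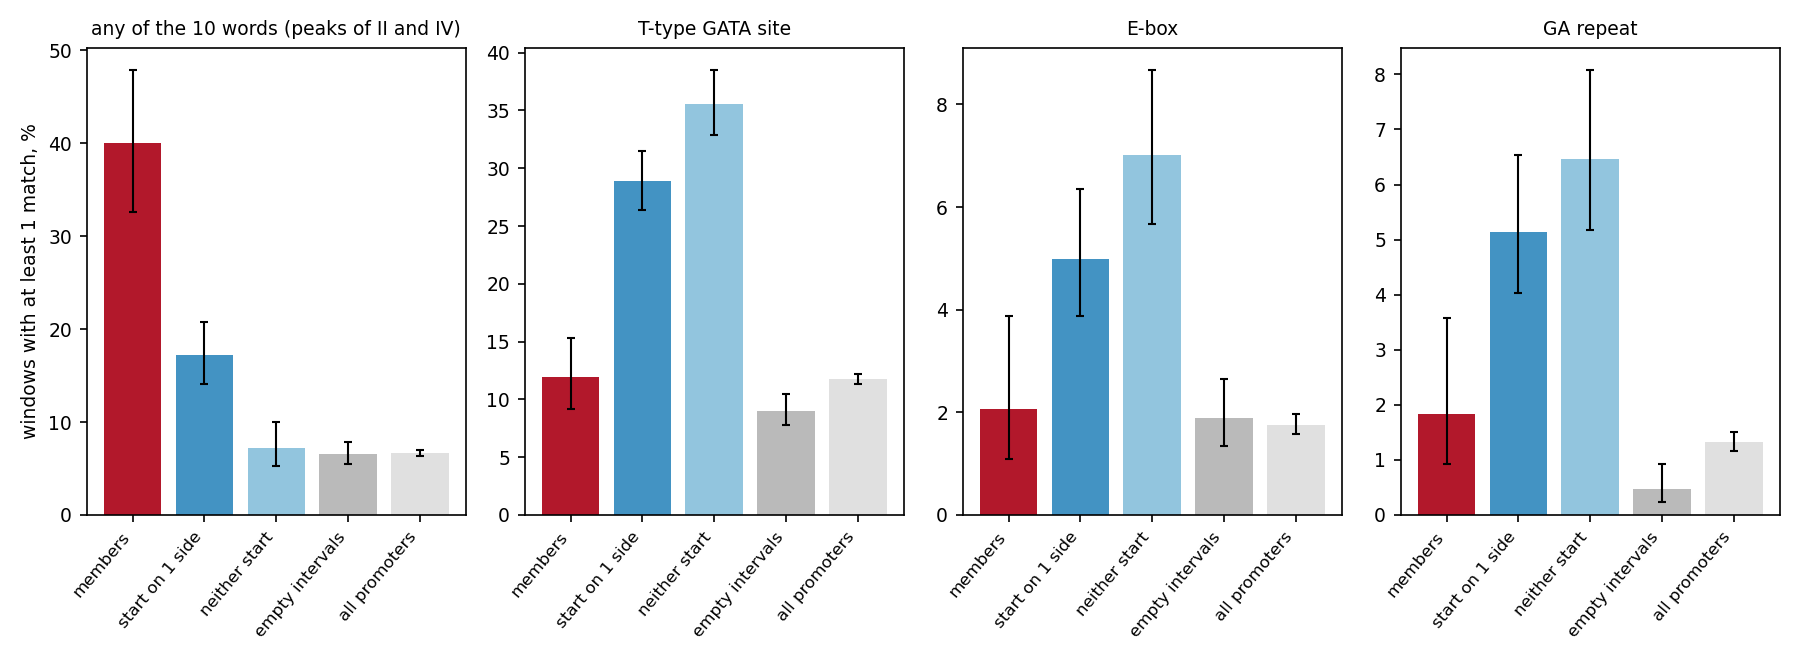
Share of windows of 101 bp with at least 1 match, with 95% Wilson intervals. Groups are members, single-direction peaks, autosomal peaks with neither start, centres of head-to-head intervals with no pooled region at the centre, and promoters of all genes. Panels show any of the 10 words (peaks of chromosomes II and IV), the GATA site that starts with T, the E-box and the GA repeat. Members have the highest bar for the words, at 40%, and stand near the level of all promoters in the other panels.

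Noncoding genes were not a feature of most members. A start of any annotated noncoding gene lay within 500 bp of the summit in the minority, and 79.9% of members had none. Small nucleolar RNA genes, which guide modification of other RNAs, were near 11 members (2.52%, against 2.16% of single-direction peaks), transfer RNA genes near 2 (0.458% against 1.08%) and microRNA genes near 4 (0.915% against 0.829%). Genes annotated only as ncRNA were near 15.1% of members (Wilson interval 12.1 to 18.8) and 10.7% of single-direction peaks (9.08 to 12.6).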

How the data were processed

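The authors deposited, per the file headers and listings, regions with a signal value, a −log10 q value and the offset of the summit for each of 2 replicates, for both pooled, and for the IDR-thresholded set. The deposited signal is an enrichment whose scale is not stated. The deposited −log10 q had 1 distinct value in the thresholded set and was not used further. No source used here names the aligner, the peak caller or the IDR threshold. The depth, also not given in the sources used here, is unknown. Lists for ce11 were used, and 0 columns of per-sample values were left out.

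Summits were placed against protein-coding transcript starts of Ensembl release 115, with sequence from RefSeq on the same assembly, WBcel235. Shares carry 95% Wilson intervals and differences 95% Newcombe intervals, which cover counting error only. No p-value over peaks was computed, since peaks are not replicates. Motifs were searched within 50 bp of the summit. Named genes are those of the 20 strongest members, up to 3 genes with the strongest member in each of 35 lists, the 10 strongest pairs with both genes in lists, and both sides of the 1000 bp limit. Members named for a rank gap or for sharing a gene pair were picked after their values were seen. Members, lists and motifs were chosen with earlier results of these data known. Python 3.11.15, numpy 2.4.6, pandas 2.3.3 and scipy 1.17.1 were used, and the class rule, intervals and word ranking were tested on simulated data. Alternatives changed the distance limit, the peaks, the start, the window and the overlap.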

Additional observations from a re-analysis of the deposited data

How the results depend on the processing

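With a limit of 500 bp there were 287 members, 10.4% of autosomal peaks, and 53.7% of their summits were in the central part of the interval. That central share is partly set by the limit, which keeps summits from the ends of intervals over 500 bp. With 1500 bp the member share was 19.7%, with only the outermost start per gene 14.5%, and with summits in no gene body 14.2%. Among the stronger 50% of peaks there were 261 members, 19% of autosomal peaks, 11.8% of head-to-head intervals held a peak (22.2% for intervals of 200 to 1000 bp over all peaks), and 10.3% of genes beside an interval had a member. There the excess of members by signal was 4.69 points and spanned 0. The difference in recovery from both replicates spanned 0 at 500 bp (5.59 points) and with reciprocal overlap (3.63 points), and reversed to -0.635 among the stronger 50%. The cause was not tested. Taking 1 replicate alone changed no call on these results. Of 180 motif comparisons under an alternative, 154 had the same call, 18 lost and 8 gained it, and 0 called differences reversed. Of the 154, 14 changed sign with intervals that spanned 0 both times. Among the 9 motifs with a difference, the shorter and the longer GATA word (TGATAA and CTGATAA) and the word CGCG kept it in every alternative run. The difference of AGATAA was lost among the stronger 50%, that of CACGTG in 3 alternatives, that of AGGTCA in 4, that of AAGTCA in 4 and that of GTAC in 5. Without replicate 2 the difference was -1.78 points for GAGAGAGA, -1.59 points for AGGTCA and 3.16 points for GTAC, and spanned 0. For the 5 highest words, 45 of 45 repeats kept the call. No paired analysis was possible because both samples form 1 group. Unknown depth and a single control limit all values.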
